A study of Xenopus laevis with 5 samples.

Results

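The maternal transcription factors described here are 5 genes of Xenopus laevis, the African clawed frog: pou5f3.3, vegt, sox3, foxr1 and foxi2. Their RNA is known from eggs and oocytes, and it was measured here in testes. Members were taken as all gene probes on the array whose accession belongs to one of these symbols, in either the L or the S copy of the gene. The frog is allotetraploid, and L and S name the copies on its long and short chromosome sets. The annotation holds 9 such copies, of which 8 had a matched probe, with 1 probe each. That makes 8 probes of 43653 gene probes on the array. No probe was matched to pou5f3.3.S, and that copy was not analysed here. The 5 genes were chosen because of the difference between simazine and control testes in these same arrays, so that difference is given as a description with no test.

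The samples were testes of males kept from Nieuwkoop-Faber (NF) stage 46 for 90 days in water with 100 µg/L of simazine (3 samples) or 0 µg/L (2 control samples). Simazine is a chlorotriazine herbicide, and the study asked which genes it changes in developing males. No genotype or strain was given in the labels, and the series text speaks of separate testes without saying that they came from separate animals, so p-values measure the spread between these samples. Each sample was hybridised to 1 one-colour Agilent array.

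Maternal transcription factors are stored in the egg as RNA or protein and act in the embryo before and while its own genes are switched on. In Xenopus, Pou5f3 and Sox3 proteins bind DNA together at genes that are activated early. VegT and Foxi2 act in different regions, VegT in the vegetal cells that form endoderm and mesoderm and Foxi2 in the animal cells that form ectoderm. Foxr1 is less studied, and in zebrafish it is known as a forkhead factor needed in the egg for early development.

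Simazine 2 and control 1 were read in 1 scan, here called slide 1, and simazine 1 and 3 with control 2 in another, here called slide 2. The slides also differed in scanner processing, since a multiplicative trend correction was applied on slide 2 and not on slide 1. The 75th percentile of the signal lay between 1564 and 4883 on simazine arrays and was 6693 and 2380 on control arrays. Spots marked by the scanner software as non-uniform or outlying took 42.6% of gene spots on simazine 2 and 44.04% on control 1, and 5.78% to 9.999% on the arrays of slide 2. Parts of the arrays are brighter or dimmer than the rest, and 25.5% of spots lie in such distorted areas, where the local log2 deviation of at least 1 array exceeds 0.5. Of the germ line and testis markers, ddx4, a germ cell helicase, and dmrt1 and sox9, factors of the male gonad, were well above background on all 5 arrays.

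All 40 spots of the 8 member probes were well above background by the scanner software's test, and none lay in a distorted area. The largest local deviation around any of them was 0.37. The scanner had marked 12 of the 40 spots, 4 of 24 on simazine arrays and 8 of 16 on control arrays. Marked spots were kept for the values below, so that each probe has 3 simazine and 2 control values. Processed signals of the members were 11.7 to 292 times the median of the negative control spots of their array on simazine arrays, and 277 to 9105 times on control arrays. Levels are log2 signals relative to the 75th percentile of the array, and a level of one probe cannot be compared with that of another.

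Of the 8 probes, 7 were lower on every simazine array than on either control array. Such a separation was found in 10.6% of the 36381 probes well above background on at least 2 arrays, and in 6.85% of the 26996 of them outside distorted areas. The same 7 were lower by 2 or more on the log2 scale, as were 1.24% of the probes outside distorted areas. Since the members were chosen by this contrast, nothing is read from their count. The differences of the 7 probes (simazine minus control) lay between -6.01 and -2.86, with a median of -4.16. The remaining probe, that of vegt.L, had a difference of -0.22. In whole tissue, fewer cells of a type and less RNA per cell cannot be told apart.

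**Figure D1:**
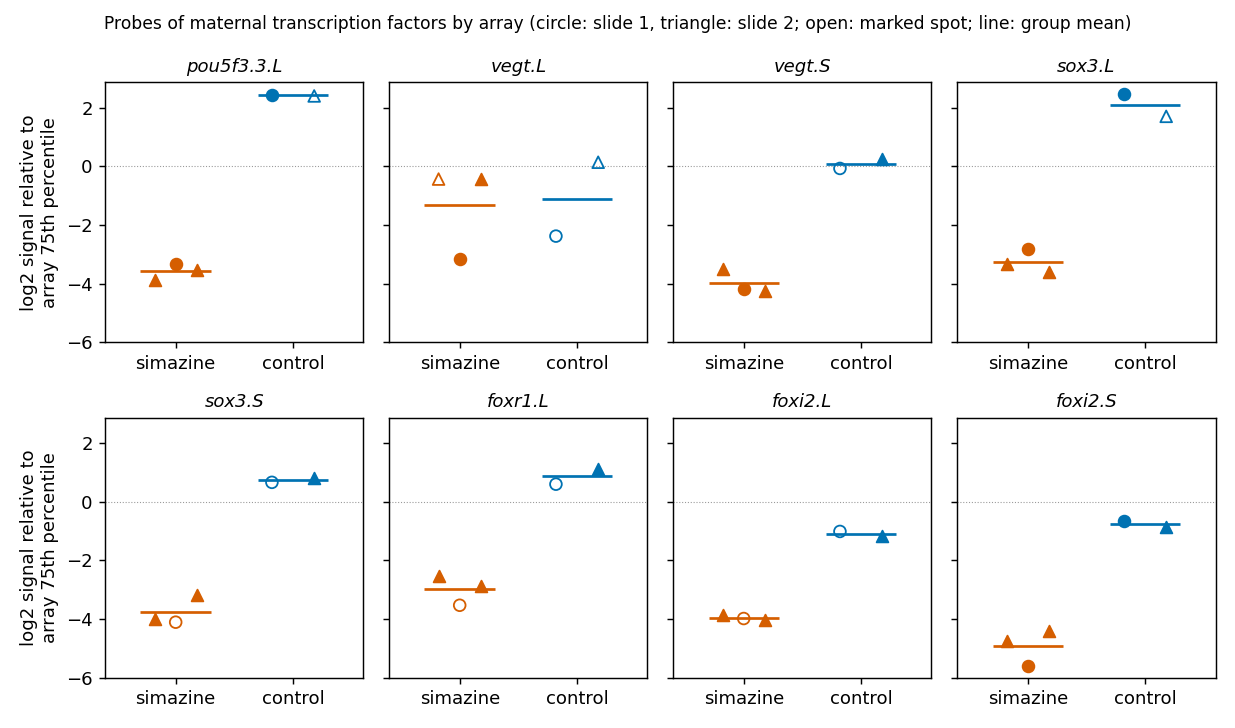
Level of each member probe (y axis, log2 signal relative to the array's 75th percentile) in the 3 simazine (orange, left) and 2 control (blue, right) testes. Lines are group means, circles are arrays of slide 1, triangles arrays of slide 2, and open symbols spots marked by the scanner. The groups are apart for 7 probes and overlap for vegt.L.

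The POU factor pou5f3.3, known as Oct60, belongs to the class that includes mammalian Oct4. Its L copy (probe A_10_P004355) had processed signals of 170.3, 484 and 134 on simazine arrays 1, 2 and 3, against 36561 and 12603 on control arrays 1 and 2. Relative to the 75th percentile these were levels of -3.86, -3.34 and -3.54 in simazine testes and 2.45 and 2.40 in control testes. The control values lie close together, and the highest simazine array was 53.5-fold below the lowest control array. The group means were -3.58 ± 0.26 in simazine (SD, n = 3) and 2.43 ± 0.03 in control testes (SD, n = 2). The difference of -6.01 is a 64.3-fold lower level, the largest among the members, and it ranked as the 16th lowest of the 26996 probes outside distorted areas. It was -5.79 within slide 1 and -6.11 within slide 2.

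The T-box factor vegt is known for its localised RNA in the vegetal cortex of the oocyte. Its S copy (probe A_10_P004483) had levels of -3.52, -4.18 and -4.25 on simazine arrays 1, 2 and 3, and of -0.07 and 0.24 on control arrays 1 and 2. The simazine values lay 16.8-fold below the control values on average (-3.98 ± 0.41, n = 3, against 0.08 ± 0.22, n = 2, SD), with no overlap. Slide 1 alone gave a difference of -4.11, and slide 2 alone one of -4.12.

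The probe whose accession belongs to the L copy of vegt (A_10_P027361) did not share this pattern. Its sequence was not analysed here, so whether it reads the L copy alone is not known. Its levels were -0.43, -3.15 and -0.42 on simazine arrays 1, 2 and 3, and -2.38 and 0.14 on control arrays 1 and 2. Both arrays of slide 1, simazine 2 and control 1, were low, and the arrays of slide 2 were high in both groups, so the groups overlapped. The spread within simazine testes was 2.73 from lowest to highest, larger than for any other member. Slide 1 alone gave -0.77 and slide 2 alone -0.57, and the difference turned to 0.69 without simazine 2 and 1.04 without control 2. Marks fell on 3 of its 5 spots, both control spots among them, so no difference was left once marked spots were removed. The local deviation around the spot was at most 0.03 on any array.

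The SOX factor sox3 is a member of the SoxB1 group, present in the oocyte and later in neural tissue. The L copy (probe A_10_P009472) had levels of -3.33, -2.83 and -3.62 on simazine arrays 1, 2 and 3, and of 2.47 and 1.71 on control arrays 1 and 2. The mean was 40.7-fold lower in simazine testes (-3.26 ± 0.40, n = 3) than in control testes (2.09 ± 0.54, n = 2, SD), a difference of -5.35. The 2 control values differed more from each other than for any other separated member, by 0.76, which remains well under the gap of 4.54 between the groups.

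The S copy of sox3 (probe A_10_P027502) had levels of -3.996, -4.11 and -3.17 on simazine arrays 1, 2 and 3, and of 0.66 and 0.80 on control arrays 1 and 2. The means were -3.76 ± 0.51 (n = 3) and 0.73 ± 0.09 (n = 2, SD), a difference of -4.49 or 22.4-fold. The probe of the L copy thus differed by 0.86 more than that of the S copy, 0.53 more within slide 1 and 0.80 more within slide 2. Probe sequences were not analysed here, so whether each probe reads 1 copy alone is not known. A difference between copies cannot be told apart from a difference between probes. Simazine 2 was the highest simazine array for the L probe and the lowest for the S probe. The local deviation on simazine 2 was 0.37 around the L probe and -0.24 around the S probe. With it subtracted, simazine 2 was at -3.20 for the L probe, still the highest. For the S probe it was then at -3.86, above simazine 1 at -3.996, so it was no longer the lowest.

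The forkhead factor foxr1 had 1 probe, of its L copy (A_10_P031016). Levels were -2.52, -3.53 and -2.87 on simazine arrays 1, 2 and 3, against 0.60 and 1.13 on control arrays 1 and 2. The means were -2.98 ± 0.51 in simazine (n = 3) and 0.87 ± 0.38 in control testes (n = 2, SD), a difference of -3.84 or 14.3-fold. It was -4.13 within slide 1 and -3.83 within slide 2.

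The forkhead factor foxi2 is a maternal activator of ectodermal genes. Its L copy (probe A_10_P045896) had levels of -3.86, -3.98 and -4.02 on simazine arrays 1, 2 and 3, and of -1.01 and -1.17 on control arrays 1 and 2. Its pooled SD of 0.0937 was the lowest of the 8 probes, and the difference was the smallest of the 7 separated probes at -2.86 (7.28-fold). The means were -3.95 ± 0.08 in simazine (n = 3) and -1.09 ± 0.11 in control testes (n = 2, SD).

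The S copy of foxi2 (probe A_10_P000768) was the only one of the 8 with no marked spot. Its levels were -4.75, -5.60 and -4.42 on simazine arrays 1, 2 and 3, and -0.67 and -0.86 on control arrays 1 and 2. Its difference was -4.16 or 17.8-fold (-4.92 ± 0.61, n = 3, against -0.76 ± 0.13, n = 2, SD). It was -4.93 within slide 1 and -3.72 within slide 2. The probe of the L copy differed by 1.29 less than that of the S copy, 1.96 less within slide 1 and 0.95 less within slide 2. As for sox3, copy and probe cannot be told apart. Signals of the S probe were 92.3, 100.8 and 73.1 on simazine arrays 1, 2 and 3. They were 5.32, 8.63 and 4.94 times the lowest signal that passed the background test on the same array.

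**Figure D2:**
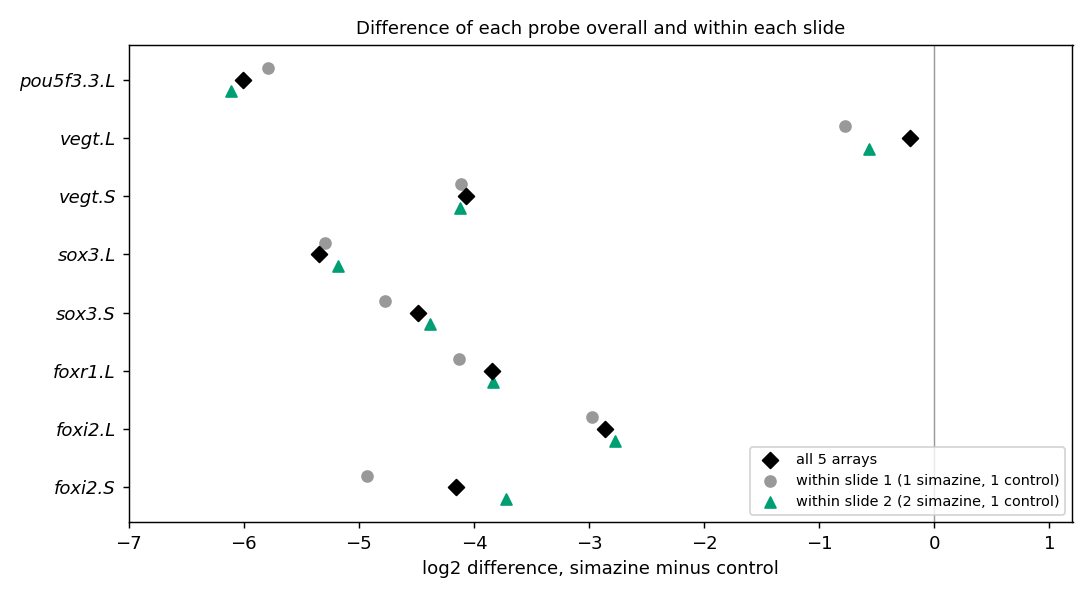
Difference of each member probe, simazine minus control (x axis, log2), over all 5 arrays (diamonds), within slide 1 (circles) and within slide 2 (triangles). For 7 probes the 3 values lie between -6.11 and -2.77, and for vegt.L between -0.77 and -0.22.

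Array position was compared through the spots around each member. The median difference of the 42 to 44 spots around each member (within 2 rows and 4 columns) lay between -0.02 and 0.24. For each of the 7 separated probes, 0 of these neighbouring spots had a difference as low as the member. For vegt.L, 7 of 42 had. The lowest neighbour of foxi2.L was at -2.75 and that of sox3.S at -3.79. Since the members were chosen for this same difference, nothing is read from these counts.

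Slide was not used to choose the members, and its effect was tested in a limma fit with group and slide, adjusted over the 26996 probes tested. The probe of vegt.L was higher on slide 2 than on slide 1 by 2.64 (SE 0.161, adjusted p = 0.00535, limma), where 2.57% of probes had a slide difference as large in size. The probe of sox3.L was lower on slide 2 by a difference of -0.69 (SE 0.180, adjusted p = 0.0485, limma), where 41.8% of probes had a slide difference as large in size. The other 6 probes had slide differences between -0.23 and 0.70, with limma adjusted p from 0.0613 upward. Of all probes tested, 32.8% passed this test for slide, so a slide difference is common on these arrays. With slide in the fit the group difference of vegt.L was -0.66, and those of the other probes lay between -5.97 and -2.86.

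**Figure D3:**
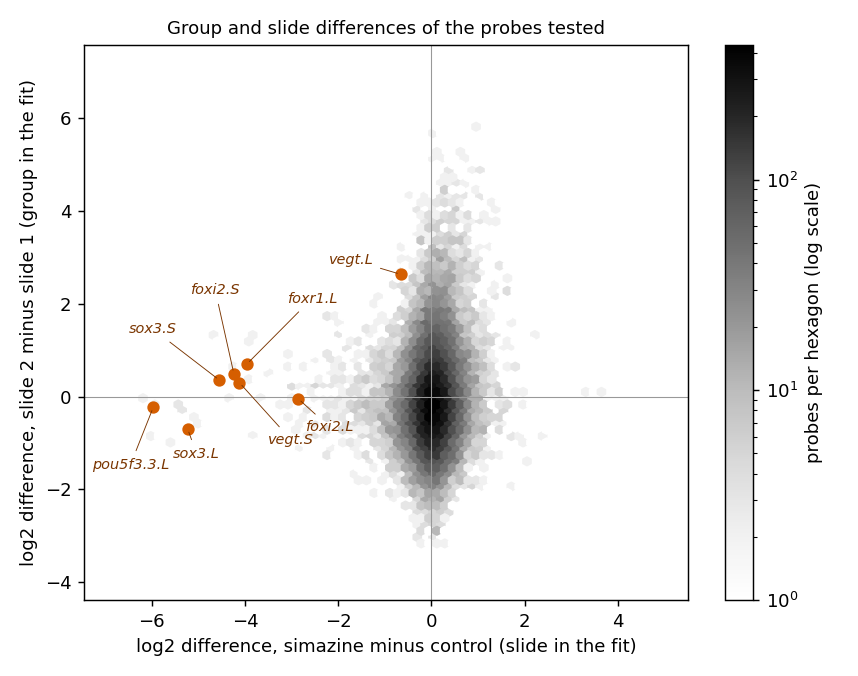
Difference by group (x axis, log2, simazine minus control) and by slide (y axis, log2, slide 2 minus slide 1) from 1 fit, for all 26996 probes tested (grey, darker for more probes) and the 8 members (orange). Members other than vegt.L lie far to the left with slide differences between -0.69 and 0.70, and vegt.L lies at -0.66 by group and 2.64 by slide.

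The patterns over the 5 arrays were compared by the distance between levels centred on their mean, as a description. The nearest pair of members was foxr1.L and vegt.S, at a distance of 0.59, followed by foxi2.S and sox3.S at 0.68. The probe of vegt.L was 4.102 to 7.07 away from the others, and 4.95 from that of vegt.S. The L and S probes of sox3 and of foxi2 were 1.67 and 1.66 apart. All pairs share the same 5 arrays, slides and groups. The distances take in the group difference for which the members were chosen, so nothing is read from them or from the likenesses below.

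Among 11150 other probes with an informative gene symbol, those nearest to pou5f3.3.L belonged to rnf138, a ubiquitin ligase (distance 0.59, Pearson r 0.996 over 5 arrays), btg4 (0.62), a factor of maternal RNA decay in mammals, and grhpr.2 (0.63). This btg4 probe had a difference of -5.88, and the other 3 probes of btg4 had -2.05, -1.05 and -0.69, so the likeness holds for 1 of its 4 probes. Nearest to sox3.L were cd63l (0.32), the globin gene hba-l5 (0.35) and spdyc, a speedy-family cell cycle regulator (0.41). Nearest to foxr1.L were top1.2 (0.44), map1lc3c (0.65) and the zinc-finger factor zic2 (0.69). The probe of map1lc3c was well above background on 1 of 3 simazine arrays, and that of spdyc on 2 of 3. Nearest to foxi2.L were depdc1 (0.14), racgap1.2 (0.35) and the replication licensing gene mcm3 (0.36). For vegt, the L probe was the one used, as it has the higher mean log2 level over the 5 arrays, and the nearest were alcam (0.35), rnf112 (0.47) and gpatch4 (0.51), with differences by group between -0.36 and 0.12.

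Other members of the 4 gene families were then compared in a limma fit over the same 26996 probes, with a call at an adjusted p under 0.05. For each gene the tested probe with the highest mean signal stood for it. Over all 6894 genes with a symbol, 0.711% were called lower (49) and 0 were called higher by limma, with a median difference of -0.001. Over all probes tested, 0.385% were called lower and 0.0148% higher. When marked spots were left out and the position filter was dropped, 1 of 31883 probes (0.00314%) and 0 of 7316 genes were called by limma.

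Of the other POU genes, 0 of 6 tested passed in either direction by limma (1 at an unadjusted p under 0.05), and the median difference was -0.12. The closest relatives of pou5f3.3 are pou5f3.2 (Oct25) and pou5f3.1 (Oct91), which are the next gene and the next but one on the same side of it in the Xenopus_laevis_v10.1 annotation. The brightest probe of pou5f3.2 had levels of -2.07, -2.11 and -2.11 on simazine arrays 1, 2 and 3 and of -0.68 and -0.23 on control arrays 1 and 2. Its groups did not overlap, but the difference of -1.64 (SE 0.293) did not pass (limma adjusted p = 0.205, and 0.0548 with a slide term). Over the other settings this difference lay between -1.86 and -1.12. A second probe of the same gene gave 0.81 (SE 0.461), in the other direction. Its levels were -3.60, -4.50 and -4.15 on simazine arrays 1, 2 and 3 and -5.41 and -4.39 on control arrays 1 and 2. The brightest tested probe of pou5f3.1 gave -0.16 (SE 0.312, limma adjusted p = 0.9999). Another tested probe of pou5f3.1 gave 1.02 (SE 1.17, limma adjusted p = 0.9999), and was well above background on only 1 control array. The gene pou2af1, whose symbol puts it in the list although it encodes a coactivator, gave 0.36 (limma adjusted p = 0.9999).

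Of the other T-box genes, 0 of 10 tested passed by limma (1 at an unadjusted p under 0.05), with a median of -0.15. The smallest p values were those of tbxt.2 (-1.20, SE 0.280, limma adjusted p = 0.443), a copy of the mesodermal factor brachyury, and tbx6 (0.48, SE 0.294). The probe of tbxt.2 was well above background on 1 of 3 simazine arrays. The brightest probe of the endomesodermal factor eomes, of its L copy, had a difference of 0.16 (SE 0.293). The tested probe of eomes.S gave 0.99 (SE 0.551, limma adjusted p = 0.9999).

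Of the other SOX genes, 0 of 13 tested passed by limma and 0 had an unadjusted p under 0.05, with a median of 0.09. The smallest p values were those of sox1, a SoxB1 relative of sox3 (0.86, SE 0.346), and sox15 (-0.70, SE 0.343, over its spots outside distorted areas). The probe of sox2, also of the SoxB1 group, lies in a distorted area and was not tested.

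Of the other forkhead genes, 0 of 26 tested passed by limma (1 at an unadjusted p under 0.05), with a median of 0.08. The smallest p was that of foxi1, an ectodermal relative of foxi2, with levels of -4.23, -4.59 and -4.62 on simazine arrays 1, 2 and 3 and of -3.80 and -3.32 on control arrays 1 and 2. Its difference was -0.93 (SE 0.319, limma adjusted p = 0.9999). The probe of foxh1, a maternal partner of Smad proteins in Nodal signalling, was not well above background on any simazine array and was on both control arrays. Measured means were -8.47 in simazine and -6.72 in control testes, a difference of -1.75 (SE 0.834, limma adjusted p = 0.9999). The groups were close at their edges, with simazine 3 at -7.32 and control 1 at -7.30. A second probe of foxh1 was well above background on 1 control array and on no simazine array, and was not tested.

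A list of 27 tested genes of other maternal regulators was chosen with earlier results of these data known. Its count is thus a description and no separate test. It had 1 call, beside 0.711% of all genes called lower. The call was zic2, a zinc-finger factor stored in the egg. Its levels were -1.82, -2.50 and -1.64 on simazine arrays 1, 2 and 3 and 1.37 and 1.46 on control arrays 1 and 2. It fell by 3.40 on the log2 scale, or 10.6-fold (SE 0.365, limma adjusted p = 0.0430, and 0.0147 once slide was a term in the fit). Over 17 other settings its difference stayed between -3.58 and -3.15, with a limma adjusted p from 0.0147 to 0.336, and 8 of them kept the call. The call ended on leaving out any 1 array, on leaving out marked spots, with normexp and with no filter on dim probes. Without a control array only 1 control is left, assumed to vary as the simazine arrays do, and in 4 of the 5 fits without 1 array limma called 0 probes in all (723 to 819 at an unadjusted p under 0.05). The Wnt ligand wnt11b, whose maternal RNA takes part in setting the dorsal side, differed by -2.36 (SE 0.333, limma adjusted p = 0.0969, 0.0322 with a slide term, and up to 0.702 over the other settings). The gene of next smallest p, grhl1, went the other way, with a difference of 2.23 (SE 1.03, limma adjusted p = 0.9999) and groups without overlap. In the list, 4 genes were lower by 1 or more and 1 was higher by 1 or more. The list's median was -0.08.

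Of 31 tested genes that act downstream of these factors in the embryo, 0 passed by limma in either direction (1 at an unadjusted p under 0.05), with a median of 0.09. Over all genes 0.711% were called lower and 0 higher. The smallest p was that of foxi1, given above. The second smallest p was that of ventx1.1, a homeobox repressor, with levels of -5.18, -9.08 and -4.91 on simazine arrays 1, 2 and 3 and of -10.34 and -7.84 on control arrays 1 and 2 (limma adjusted p = 0.9999). Its probe was well above background on simazine 1 and 3 and on no other array, and the groups overlapped. The endodermal factor sox17a gave 0.09 (SE 0.312). The lists of maternal regulators and of downstream genes share 0 to 5 genes with each family.

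**Figure D4:**
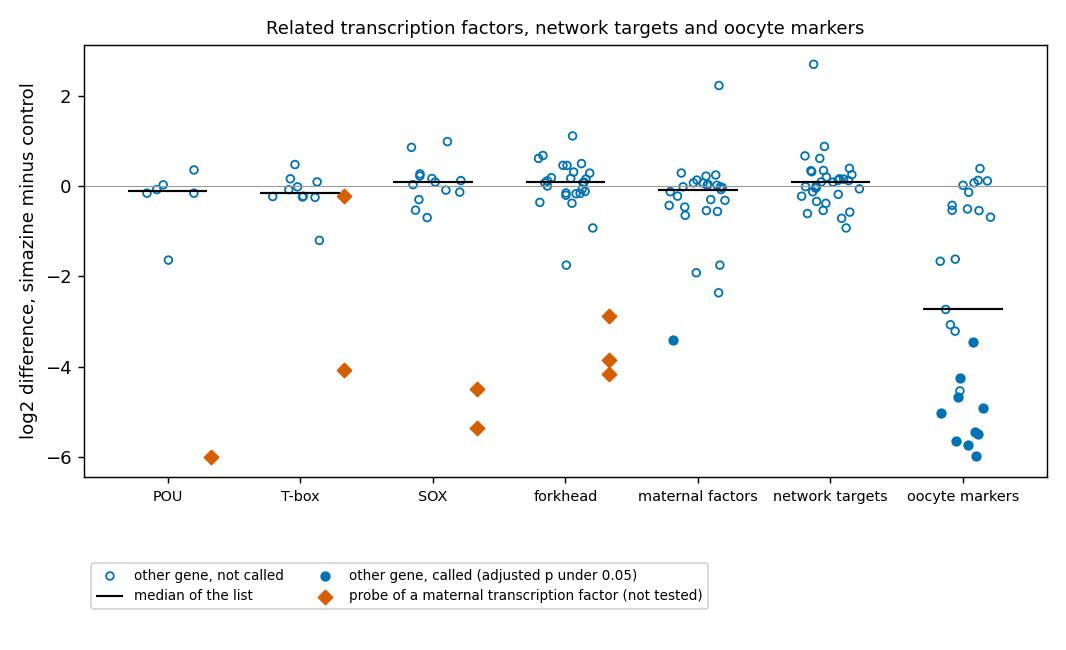
Difference, simazine minus control (y axis, log2), of other genes of 4 families, of other maternal factors, of network targets and of oocyte markers, with filled points for genes called by limma and lines for list medians. Orange diamonds are the member probes beside their own family, where 7 of them lie lower than every other family gene shown. The members were chosen for this same difference, so nothing is read from their place.

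Some markers of oocytes were lower in simazine testes as well. The oocyte list was chosen with earlier results of these data known, so its counts are a description and no separate test. Of its 27 tested genes other than the members, 10 were called lower by limma and 17 were not called, beside 0.711% of all genes called lower. A difference of -1 or lower was found in 16, beside 3.23% of all genes, and the median was -2.73. Among them were zp4 of the egg envelope (-5.98, SE 0.651, limma adjusted p = 0.0444, 0.0526 with a slide term) and h1-8, the oocyte linker histone (-5.44, SE 0.332, adjusted p = 0.0114). The histone chaperone npm2 (-3.45, SE 0.301, adjusted p = 0.0264) and the RNA-binding protein zar1 (-4.25, SE 0.395, adjusted p = 0.0302) fell too. Other tested probes of npm2 gave -3.18 (limma adjusted p = 0.148) and -3.95 (limma adjusted p = 0.0776) and were not called. The probe of figla, also set by name, lies in a distorted area and was not tested. Its difference was -0.14, and its groups overlapped. Of the 27 tested genes, 22 had a difference below 0, beside 50.04% of all genes, and the highest difference was 0.39. The mean level of the 27 genes was -1.28, -1.34 and -1.68 on simazine arrays 1, 2 and 3, and 1.32 and 0.97 on control arrays 1 and 2. Their summed level ranged from 122 to 187 times the 75th percentile in simazine testes and from 206 to 227 times in control testes. On simazine arrays 1, 2 and 3, 26, 27 and 26 of the 27 were well above background, and all 27 were on each control array. The sum adds linear levels of different probes, and much of it is 1 gene, ybx2, a germ cell RNA-binding protein with a difference of 0.02 (SE 0.368). Its level alone was 133, 108 and 73.8 times the 75th percentile on simazine arrays 1, 2 and 3 and 90.1 and 113 times on control arrays 1 and 2. The part of these markers in the members' differences was not tested. With marked spots left out and no position filter, 0 of 27 oocyte genes were called by limma (15 at an unadjusted p under 0.05), and the count was 0 to 6 on leaving out 1 array.

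The lists of male germ line and testis somatic genes gave 0 calls. Over all genes only 0.711% were called lower and 0 higher, so 0 calls in lists this short does not set them apart. The germ line list includes general germ cell genes such as ddx4, its brightest gene on every array, so it is not specific to male germ cells. Of 15 tested genes of the male germ line, 0 were called by limma (1 at an unadjusted p under 0.05), and their mean level was 3.12, 3.16 and 2.77 on simazine arrays 1, 2 and 3 and 3.01 and 2.73 on control arrays 1 and 2. Among them ddx4 gave 0.25 (SE 0.535), and zpbp2, a sperm head protein, gave 1.27 (SE 0.314, limma adjusted p = 0.521). Other tested probes of ddx4 gave -0.29 (SE 0.597) and -0.09 (SE 0.550). The germ line differences lay between -0.39 and 1.27. Of 10 tested genes of testis somatic cells, 0 were called by limma (0 at an unadjusted p under 0.05), with a median of 0.04 and a range from -0.82 to 0.66. The Sertoli cell factor sox9 gave 0.17 (SE 0.422), dmrt1 gave 0.37 (SE 0.307, groups without overlap) and the steroid enzyme cyp17a1 gave 0.66 (SE 1.102). Other tested probes of sox9 gave 0.45 and 0.34, and a sox9 probe in a distorted area, not tested, gave -1.17. The other tested probe of dmrt1 gave 0.30. The cyp17a1 probe was low on both arrays of slide 1, at -3.99 on simazine 2 and -4.10 on control 1. On slide 2 it was higher, at -1.33 and -1.40 on simazine 1 and 3 and -1.69 on control 2.

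Genes that lie beside the members in the genome were looked at after the members' values were seen. Taking 3 protein-coding genes on each side of each copy in the Xenopus_laevis_v10.1 annotation, 11 neighbour genes of 6 copies had 20 probes tested. Of these probes 0 were called by limma in either direction, against the 0.385% called lower among all probes. Their median difference was -0.09, and 1 was lower by 1 or more, that of pou5f3.2. The neighbours of vegt.S, which include crkl, ddt and smarcb1, had differences between -0.42 and 1.13.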

How the data were processed

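Testis RNA of 5 Xenopus laevis samples (3 simazine, 2 control) was hybridised to one-colour arrays, and 1 array carried 1 sample. The deposited scanner tables hold linear intensity values and 0 or 1 flags (another kind of score) that, per the file headers, came from version 10.7.3.1 of Agilent's Feature Extraction. The authors deposited a log2 table of 27228 probes, which differ from the log2 processed signals by 1 constant per array. Its column medians were 0.958, 1.02 and 0.949 for simazine 1, 2 and 3 and 1.06 and 0.951 for control 1 and 2, and which statistic set the constants stays unknown. No genome build is named in the array files.

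Processed signals were divided by the array's 75th percentile over 43803 gene spots and taken to log2, and spots of a probe were averaged. Of 36331 accessions, 10012 matched a symbol of the RefSeq table (Xenopus_laevis_v10.1). Spots in distorted areas were left out of the fit (local deviation over 0.5 on any array, a median over 5 rows and 9 columns of deviations from the 5-array median). Marked spots were kept, because leaving them out removes control 1 for 44.04% of spots. Probes well above background on at least 2 arrays were fitted with limma 3.58.1 in R 4.3.3 (lmFit, eBayes, two-sided, Benjamini-Hochberg over all probes), simazine minus control. The fit was tested on simulated data. Alternatives covered marked spots, the position filter, background correction, normalization, the dim-probe filter, slide, array weights and each array left out. The normexp alternative used median signals with an offset of 50.

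The members and lists were chosen with earlier results of these data known. Named were all member probes, up to 6 called genes (or else the 2 of smallest p) per family, maternal or downstream list, the 3 nearest genes per member's brightest probe by mean log2 level, close paralogs and, from the oocyte and testis lists, markers set by name. Of those markers and paralogs, gdf9, nobox, amh, sycp3 and piwil1 had no matched probe, and figla and star had their brightest probes in distorted areas. Named outside this rule were wnt11b, which was called only with a slide term, grhl1, sox17a, ybx2 and the neighbour genes crkl, ddt and smarcb1. Promoter motifs were not analysed here, as no sequences were used.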

Additional observations from a re-analysis of the deposited data

How the results depend on the processing

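The number of arrays, 3 simazine and 2 control, limits every value. The median difference of the member probes was -4.11 over all 8 probes. It was -4.45 within slide 1, -3.98 within slide 2 and -4.13 with quantile normalization. With marked spots left out (-4.22) and in the authors' log2 table (-4.15), vegt.L had no difference to give. These 2 medians are thus over the other 7 probes, whose median was -4.16 in the main values. With marked spots left out, only foxi2.S kept 2 control arrays, and each of the other probes was left with 1. For foxi2.L, foxr1.L and sox3.S, 2 simazine arrays were left as well. The median over 8 probes moved to -3.50 with normexp, where the median of all probes was itself 0.22, so the members differed from it by -3.71. It lay between -4.27 and -3.89 on leaving out 1 array, and 7 or 8 probes then had groups without overlap. The difference of vegt.L reversed to 1.04 without control 2 and 0.69 without simazine 2 and was -1.48 without control 1, and the other 7 probes kept their sign in all settings run.

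The count of probes called by limma was 108 (104 lower and 4 higher, 1038 at an unadjusted p under 0.05). It was 1 with marked spots left out, with or without the position filter (the second setting was chosen after seeing the data), 372 without the position filter (244 lower and 128 higher), 17 with normexp (17 lower, 0 higher), 43 with no filter on dim probes and 258 with slide as a block. Leaving out 1 array gave 0 to 53 (limma, 723 to 1674 at an unadjusted p under 0.05), with 53 without simazine 2. Of 103 related genes, 1 was called, and 0 were called by limma with marked spots left out (6 at an unadjusted p under 0.05, or 10 without the position filter), with normexp (3) and with no dim filter (6). The number was 2 with slide as a block, and 0 without any 1 array (4 to 9 at an unadjusted p under 0.05, limma). The labels give no replicate numbers shared between the groups, so slide was the only block fitted.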
